A study of Caenorhabditis elegans with 2 samples.

Results

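Of 29417 candidate peaks in the pooled list of a CEH-34 ChIP-seq experiment in C. elegans late embryos, 257 lay at tRNA genes on the autosomes. A candidate was counted when it was on one of the 5 autosomes and its summit lay inside or within 200 bp of a gene of biotype tRNA in the WBcel235 annotation. The autosomes held 24008 candidates in all, so these peaks made up 1.07% of them. Strength and presence in the thresholded list played no part in the choice. Of the 336 autosomal tRNA genes, 219 (65.2%) had at least 1 candidate in reach and 96 (28.6%) had at least 1 peak of the thresholded list. That list, which the authors thresholded by repeatability between replicates, held the 2508 strongest pooled candidates. A peak in it need not have a peak of its own in each replicate.

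The worms were hermaphrodites of strain OP524, with the unc-119(tm4063) III allele and the integrated transgene wgIs524, from which CEH-34 is made with GFP and FLAG at its C-terminus. Whole late embryos were taken 3.5 hours after synchronisation by bleaching, their chromatin was sonicated, and anti-GFP antibody served for the precipitation. The 2 biological replicates came from separate biosamples and form the only group, so no comparison between conditions could be made. All cells of the embryo went into the same chromatin, so binding in few cells and weak binding in many cannot be told apart, and a protein made from a transgene need not be at the level of the native one.

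tRNA genes are transcribed by RNA polymerase III. Their promoter lies inside the gene: the A box and the B box are bound by TFIIIC, which places TFIIIB just before the gene, and transcription ends at a run of T. CEH-34 is a homeodomain protein of the sine oculis family known for its role in the neurons of the pharynx.

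The genes below are shown because they carried strong peaks. Capitals mark 2 stretches. The first is the anticodon, found by matching each gene to its annotated amino acid, since the annotation gives no anticodon. The second is the B box, searched as GTTCGANNC or GTTCAANNC. Each gene is given 5′ to 3′ on its own strand from the RefSeq sequence of WBcel235.
F57F5.t1 (Ile): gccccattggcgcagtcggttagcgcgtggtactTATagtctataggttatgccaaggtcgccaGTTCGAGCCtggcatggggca
K06A4.t1 (Ala): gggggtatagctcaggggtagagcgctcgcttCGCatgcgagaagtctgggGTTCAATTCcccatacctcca
F29C4.t1 (Arg): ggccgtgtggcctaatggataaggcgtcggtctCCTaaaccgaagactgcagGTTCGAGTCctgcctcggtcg
ZC455.t1 (Ser): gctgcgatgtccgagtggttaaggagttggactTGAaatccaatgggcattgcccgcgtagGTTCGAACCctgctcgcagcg
C14B9.t2 (Leu): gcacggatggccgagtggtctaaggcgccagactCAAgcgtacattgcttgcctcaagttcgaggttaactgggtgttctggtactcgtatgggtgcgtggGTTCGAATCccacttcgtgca
T03E6.t1 (Gln): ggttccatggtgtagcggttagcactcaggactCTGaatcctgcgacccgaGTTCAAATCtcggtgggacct
F57F5.t1 lies between protein-coding genes at chrV:12002176-12002260 on the plus strand, and T03E6.t1 likewise at chrV:16592237-16592308 on the minus strand. The other 4 lie in introns. K06A4.t1 is at chrV:9503562-9503633 on the plus strand in swt-5, F29C4.t1 at chrIV:143982-144054 on the plus strand in col-99, ZC455.t1 at chrV:12780386-12780467 on the minus strand in ZC455.1, and C14B9.t2 at chrIII:8109603-8109724 on the plus strand in C14B9.3. They carry 6 different amino acids. K06A4.t1 and T03E6.t1, both 72 bases long, had the same letter at 26 positions when set side by side without gaps.

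The next genes are shown because genes with the same or similar letters differed in their peaks. The first 3 stand for sets of identical genes within which some copies had a thresholded peak and others had no candidate. The last 2 are single-copy genes with an intact B box and no candidate within 200 bp.
ZK970.t1 (Pro, identical in 24 genes): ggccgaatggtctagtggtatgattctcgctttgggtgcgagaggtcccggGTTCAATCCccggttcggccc
F18C5.t1 (Lys, identical in 14 genes): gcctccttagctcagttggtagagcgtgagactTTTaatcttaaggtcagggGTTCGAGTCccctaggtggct
C16C8.t2 (Thr, identical in 15 genes): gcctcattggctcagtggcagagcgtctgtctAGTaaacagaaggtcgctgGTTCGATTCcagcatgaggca
M03A1.t2 (Ala, single copy): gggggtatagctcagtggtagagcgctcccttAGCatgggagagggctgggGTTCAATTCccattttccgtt
C52E12.t2 (annotated Thr, single copy): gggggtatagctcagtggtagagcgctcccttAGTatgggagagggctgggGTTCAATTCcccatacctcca
Their coordinates are chrII:10302399-10302470 on the plus strand for ZK970.t1, chrII:6565248-6565320 on the plus strand for F18C5.t1, chrII:3439219-3439290 on the minus strand for C16C8.t2, chrII:4565016-4565087 on the minus strand for M03A1.t2 and chrII:7003273-7003344 on the plus strand for C52E12.t2. C52E12.t2 differed from K06A4.t1, which had the sixth strongest peak of the 257, at 7 of 72 positions. M03A1.t2 differed from K06A4.t1 at 14 positions and from C52E12.t2 at 9. No anticodon is marked in ZK970.t1, where the match to the amino acid was not unique.

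Signal is the peak caller's height of a peak, on a scale of its own in each list, so it was compared only within a list. The pooled signal of the 257 peaks had a median of 53.98, with an interquartile range of 31.9 to 93.6 and extremes of 18.4 and 346.9. All 24008 autosomal candidates had a median of 28.1. Placed by rank in the whole pooled list, the tRNA peaks had a median percentile of 84.9, against 49.5 for all autosomal candidates. The tRNA peaks thus covered nearly the whole range of the list, with their centre in its upper part. The strongest autosomal candidate of any kind had 1522.

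In the thresholded list were 94 of the 257 tRNA peaks, 36.6% (95% Wilson interval 30.9 to 42.6), where 8.09% of all autosomal candidates were. These intervals cover counting error only. The autosomal candidates away from tRNA genes had 1848 of 23751 in the list, 7.78%. Peaks at tRNA genes made up 4.84% of the 1942 autosomal thresholded peaks. On the X chromosome 80 of 182 tRNA peaks were thresholded, 44.0% (36.9 to 51.2), where 10.2% of all X candidates were, so the autosomal and X intervals overlapped. Candidates near autosomal snoRNA and snRNA genes, other short genes for structural RNA, had a like share of 83 of 236, 35.2% (29.4 to 41.5). At autosomal tRNA pseudogenes, copies annotated as no longer functional, it was 4 of 34, 11.8% (4.67 to 26.6). The difference between tRNA peaks and these classes was not tested. The share at tRNA genes was above the background on each autosome: 20 of 51 on chromosome I, 15 of 46 on II, 20 of 53 on III, 24 of 54 on IV and 15 of 53 on V, or 28.3% to 44.4%, where all candidates of a chromosome gave 7.43% to 8.75%.

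**Figure D1:**
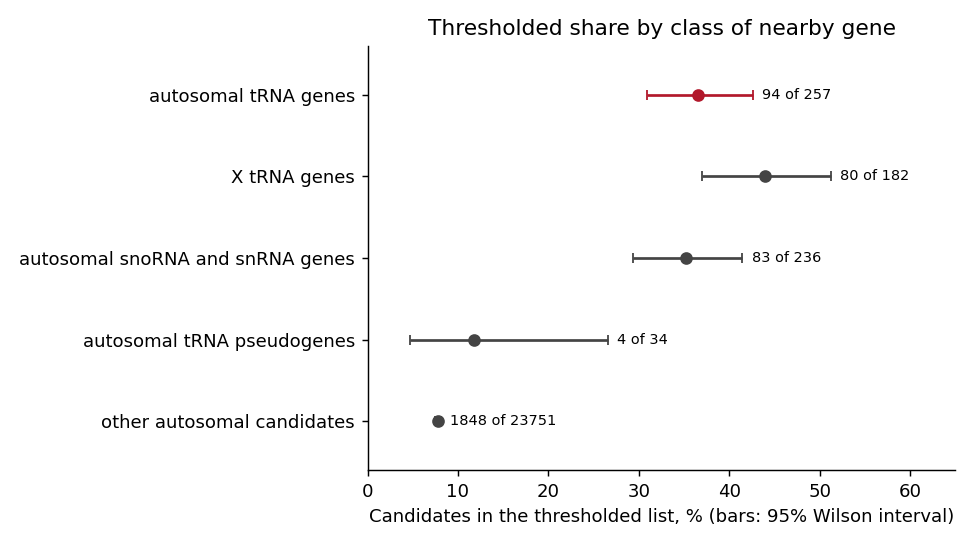
Share of candidate peaks that are in the thresholded list (x axis, percent), by the class of gene within 200 bp of the summit, with 95% Wilson intervals as bars and counts beside them. Peaks at autosomal tRNA genes (36.6%) lie beside those at X tRNA genes and at snoRNA and snRNA genes, and right of tRNA pseudogenes (11.8%) and of all other autosomal candidates (7.78%).

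Among the genes themselves, 65.2% of the 336 autosomal tRNA genes had a candidate and 28.6% a thresholded peak. On the X the counts were 166 of 276 (60.1%) and 79 of 276 (28.6%). Of 180 autosomal tRNA pseudogenes, 37 (20.6%) had a candidate and 4 (2.22%) a thresholded peak. The pseudogenes thus had candidates and thresholded peaks less often than the genes by these counts, a difference that was not tested.

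The strongest tRNA peak lay on C37A2.t1, a Cys gene in an intron of the cyclin E gene cye-1 on chromosome I. Its signal was 165.5 in replicate 1 and 181.8 in replicate 2, and its pooled signal of 346.9 ranked 58 among all pooled candidates. B0523.t1, a Trp gene in an intron of fli-1, which encodes a protein that binds actin, came next with 157.6 and 154.4 in the replicates and 312.6 pooled. T14B4.t1, a Leu gene read against its host T14B4.8, had 134.7 and 158.1, and 294.0 pooled. Its summit also lay 95 bp from a coding 5′ end of T14B4.8. Over the 146 tRNA peaks found in both replicates the medians were 39.6 in replicate 1 and 47.05 in replicate 2, so all 3 were high in both.

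F57F5.t1 (Ile) was the strongest of those between coding genes, with 113.3 in replicate 1, 172.4 in replicate 2 and 278.9 pooled. Its summit lay 23 bp before the gene and 356 bp from a 5′ end of gcy-33, a guanylate cyclase gene. T15B12.t1 (Met) had 131.8 and 133.1, K06A4.t1 (Ala) 112.1 and 142.5, and T21B4.t1 (Ile, in the collagen gene col-85) 119.9 and 129.7. The summits at T15B12.t1 and T21B4.t1 lay 446 and 314 bp from a 5′ end of their host genes. F29C4.t1 (Arg, in the collagen gene col-99) had 123.1 and 112.2, F33G12.t1 (Ile) 101.9 and 138.7, and ZC455.t1 (Ser) 105.5 and 115.8. Of these 10 strongest peaks, 9 lay at tRNA genes in introns, where 147 of all 257 peaks did (57.2%). All 10 had their summit inside or within 25 bp of the gene, where 132 of the 257 did. All 10 had a peak in both replicates, where 146 of the 257 did (56.8%). These differences between the 10 and the 257 were not tested.

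Further strong peaks between coding genes lay at T23F1.t2 (Pro; 108.7 and 86.9 in replicates 1 and 2), F56F3.t1 (Arg; 87.1 and 109.2), B0350.t1 (Lys; 83.5 and 101.2) and ZK622.t1 (Ala; 91.2 and 91.3). The peak at T23F1.t2 lay between that gene and the Lys gene T23F1.t1, 30 bp beyond T23F1.t2, so it counts for both. In all, 12 of the 257 peaks had 2 tRNA genes within reach. At the edge of the thresholded list, the weakest thresholded tRNA peak was at F44A2.t1 (Ala) with a pooled signal of 77.9, and the strongest that was not thresholded was at F21C3.t1 (Lys) with 76.2. F44A2.t1 had 44.5 in replicate 1 and 29.6 in replicate 2, and F21C3.t1 had 36.3 and 36.7, so the line between them does not part their replicate values.

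**Figure D2:**
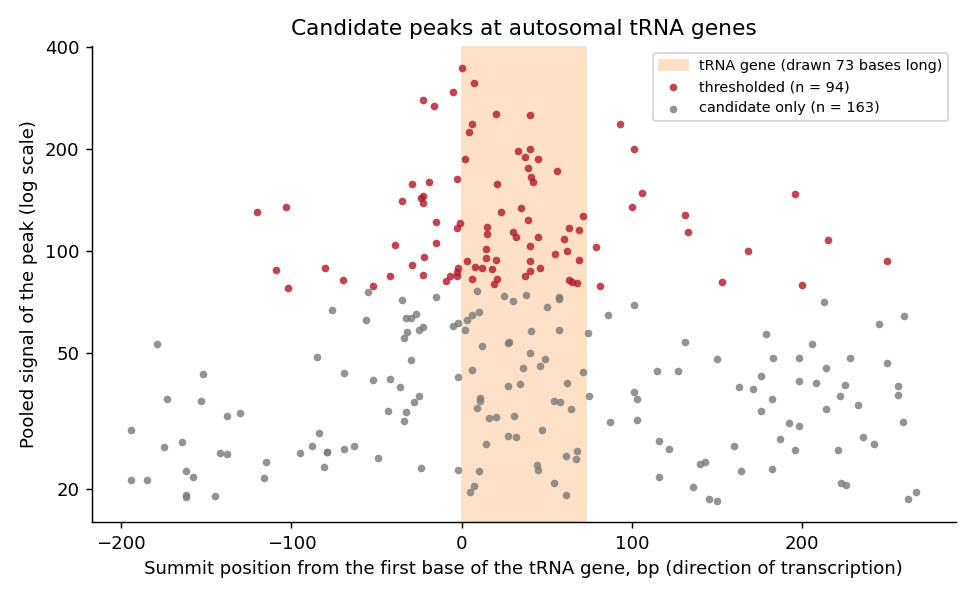
Pooled signal (y axis, log scale) of each of the 257 peaks against the position of its summit from the first base of the tRNA gene in the direction of transcription (x axis, bp); the shaded band stands for a gene of 73 bases. Thresholded peaks (red, n = 94) crowd at the gene and just before it, and the 10 strongest, with signals of 223.9 to 346.9, all lie in the gene or within 23 bp of it.

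Summits gathered at the gene. The median summit lay 28 bp after the first base of the tRNA gene for all 257 peaks and 20 bp after it for the 94 thresholded ones. Of the 257, 98 were inside the gene, 88 before it and 71 after it. Inside the gene 50 of 98 were thresholded (51.0%, 41.3 to 60.7), before it 31 of 88 (35.2%, 26.1 to 45.6) and after it 13 of 71 (18.3%, 11.02 to 28.85). All autosomal candidates gave 8.09%. The intervals for inside and after did not overlap. These counts include summits that have a stronger one within 300 bp, and how those fall before and after the gene was not counted. X tRNA peaks had the same order, with 42 of 69 (60.9%), 26 of 57 (45.6%) and 12 of 56 (21.4%).

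By distance, 21 of the 34 peaks with a summit 1 to 25 bp from the gene were thresholded (61.8%), 8 of 30 at 26 to 50 bp (26.7%), 7 of 36 at 51 to 100 bp (19.4%), 7 of 31 at 101 to 150 bp (22.6%) and 1 of 28 at 151 to 200 bp (3.57%). Up to 25 bp in all, 71 of 132 were thresholded (53.8%, 45.3 to 62.1), and beyond 25 bp 23 of 125 (18.4%, 12.6 to 26.1). That is, 75.5% of the thresholded tRNA peaks had their summit in or within 25 bp of the gene. The X gave 65 of 107 (60.7%) up to 25 bp and 15 of 75 (20%) beyond. Outside the 200 bp limit, 0 of 14 autosomal candidates at 201 to 300 bp were thresholded (Wilson interval up to 21.5%), 3 of 17 at 301 to 500 bp and 1 of 86 at 501 to 1000 bp (1.16%). Around the limit itself, the last peaks inside it were at T02G6.t1 (194 bp, signal 29.8) and F22G12.t2 (195 bp, 19.5), and the first outside it were at C13B4.t1 (201 bp, 25.6) and Y116F11A.t1 (201 bp, 47.9). None of these 4 was thresholded.

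The steps were uneven on both sides of the gene. Of peaks with a summit 1 to 50 bp before the gene, where TFIIIB is known to sit, 24 of 47 were thresholded (51.1%), against 3 of 17 (17.6%) at 51 to 100 bp before. At 1 to 50 bp after the gene, where transcription ends, it was 5 of 17 (29.4%). Inside the gene the part up to its middle, which holds the A box, had 27 of 52 (51.9%), and the rest, which holds the B box, 23 of 46 (50%). The X gave 25 of 39 (64.1%) at 1 to 50 bp before and 7 of 23 (30.4%) at 1 to 50 bp after. The sides were not compared by a test, and the median width of the 257 peak intervals was 450 bp, several times the length of a tRNA gene.

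Summits of the pooled list were never closer than 199 bp to each other, which bears on the outer bins. Of the 257 tRNA peaks, 87 (33.9%) had their nearest other summit 190 to 210 bp away, where 14.4% of all autosomal candidates did. At C37A2.t1 a further peak lay 200 bp after the first base, with a pooled signal of 79.7, a peak of 84.4 in replicate 2 and none in replicate 1 within 100 bp. Of the 257 peaks, 203 were the strongest within 300 bp, and 91 of those were thresholded (44.8%, 38.1 to 51.7), where 8.91% of all autosomal candidates that were the strongest within 300 bp were. Among them, 69 of 122 up to 25 bp from the gene were thresholded (56.6%) and 22 of 81 beyond 25 bp (27.2%, 18.7 to 37.7). The 54 peaks with a stronger neighbour, called side summits here, had 3 thresholded. The thresholded list holds the strongest candidates, so this choice by signal raises the share in part by construction. Without these side summits the share beyond 25 bp was 27.2% in place of 18.4%. Its interval lay below that of the peaks up to 25 bp (47.7 to 65.02). Beyond 100 bp it was 7 of 25 (28%, 14.3 to 47.6), close to that beyond 25 bp, while 1 of 34 side summits there was thresholded. The low shares of the outermost autosomal bins thus include many side summits. Without side summits the X gave 11 of 49 (22.45%) beyond 25 bp and 0 of 13 (up to 22.8%) beyond 100 bp.

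**Figure D3:**
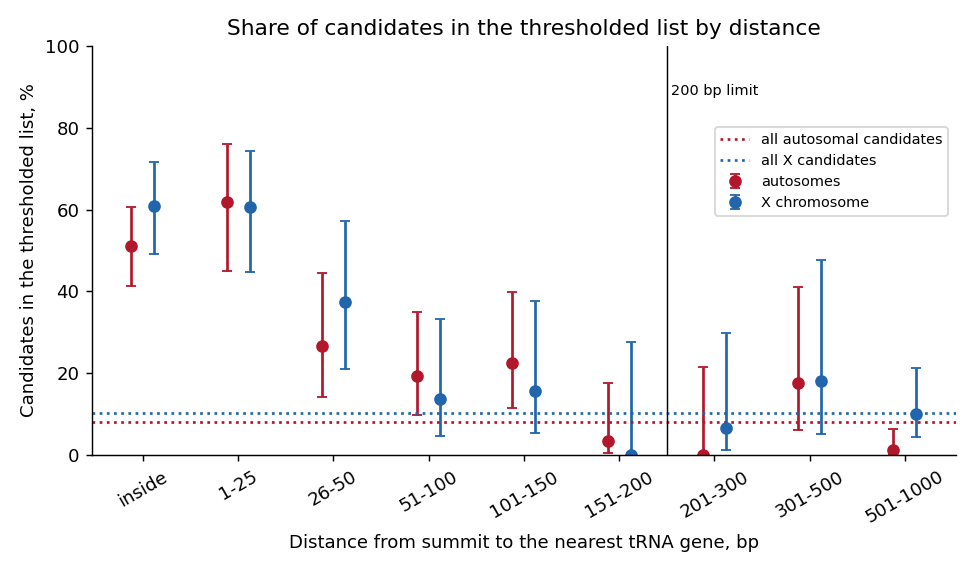
Share of candidates in the thresholded list (y axis, percent, with 95% Wilson intervals) by the distance of the summit from the nearest tRNA gene (x axis, bp) on the autosomes (red) and on the X (blue); dotted lines give all candidates of each. Autosomal values of 51.0% inside the gene and 61.8% at 1 to 25 bp give way to 26.7% at 26 to 50 bp and 3.57% at 151 to 200 bp. The outer bins include summits that have a stronger one within 300 bp.

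tRNA genes of the worm often lie in introns of protein-coding genes. The gene nearest the peak was intronic for 147 of the 257 peaks (57.2%), close to the share of intronic genes among all autosomal tRNA genes, 188 of 336 (56.0%). Of the peaks at intronic tRNA genes, 58 of 147 were thresholded (39.5%, 31.9 to 47.5), where all autosomal candidates with a summit in an intron gave 6.66%. Between coding genes it was 33 of 104 (31.7%, 23.6 to 41.2), where all such autosomal candidates gave 13.6%. The intervals for intronic and intergenic tRNA peaks overlapped, while the backgrounds stood the other way round. The X had 26 of 67 (38.8%) in introns and 53 of 113 (46.9%) between genes. A further 6 peaks lay at tRNA genes that overlap an annotated exon. Of these, 3 were thresholded (interval 18.8% to 81.2%), where all autosomal candidates with a summit in an exon gave 2.05%. The 3 were at W02G9.t2 (114.1), K02D7.t1 (100.3) and Y69A2AR.t2 (84.4).

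In autosomal introns, 37 of 94 peaks at tRNA genes read in the direction of the host were thresholded (39.4%) and 21 of 52 at those read against it (40.4%). On the X the counts were 9 of 31 (29.0%, 16.1 to 46.6) and 17 of 36 (47.2%, 32.0 to 63.0), with intervals that overlapped. A coding 5′ end lay within 1000 bp of the summit for 117 of the 257 peaks, of which 43 were thresholded (36.8%, 28.6 to 45.8), and of the other 140 peaks 51 were (36.4%, 28.9 to 44.7). For all autosomal candidates the shares were 10.1% within 1000 bp and 6.32% beyond. A nearby coding promoter thus went with a higher share over all candidates and with nearly the same share at tRNA genes.

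By amino acid, the share of autosomal tRNA genes with a thresholded peak was 4 of 6 for Cys, 9 of 17 for Arg (52.9%, 31.0 to 73.8), 7 of 15 for Asp and 8 of 22 for Leu. At the low end stood 1 of 11 for Tyr and for His, 1 of 8 for Phe and 1 of 7 for Trp. Glycine, the largest group, had 9 of 35 (25.7%) and Lys 9 of 28 (32.1%). Over all autosomal tRNA genes the share was 96 of 336 (28.6%), which every interval included except those of Cys (30 to 90.3) and Arg. All intervals overlapped, and the order was not the same on the X, where Arg had 6 of 27 (22.2%), Asp 3 of 12 (25%) and Tyr 3 of 8 (37.5%). All 6 autosomal Cys genes had a candidate, with pooled signals from 346.9 at C37A2.t1 and 145.5 at F32B4.t1 down to 26.1 at T28C12.t1 (strongest peak of each).

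The only autosomal Sec gene, K11H12.t1, whose tRNA carries selenocysteine, had a thresholded peak of 64.0 in replicate 1, 69.8 in replicate 2 and 135.3 pooled. Its summit lay 103 bp before the gene. That is farther out than most thresholded peaks, and it was also 263 bp from the 5′ end of the host gene K11H12.8. His, Tyr and Phe had 1 thresholded gene each, at W09G10.t1 for His (133.5 pooled, in the collagen gene col-72), T22F7.t1 for Tyr (103.1) and Y39B6A.t9 for Phe (88.4). Each of those lay below the strongest Asp, Val and Gly peaks, F28F8.t3 (164.8), F22G12.t1 (162.9) and T22A3.t1 (159.6). The strongest Gln peak, at T03E6.t1, had 143.4, the strongest Asn peak, at Y116F11A.t1, had 127.3 and the strongest Glu peak, at Y104H12A.t1, 121.0.

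**Figure D4:**
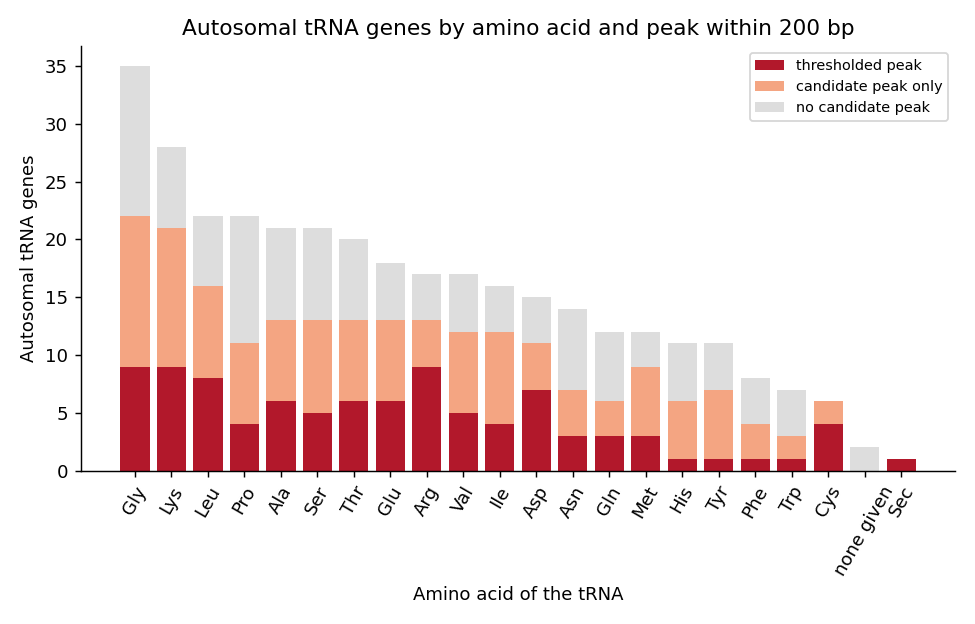
Number of autosomal tRNA genes (y axis) for each amino acid (x axis), split by the strongest peak within 200 bp: thresholded (red), candidate only (orange) or none (grey). Every amino acid had at least 1 gene with a thresholded peak and the 2 genes with no amino acid given had no candidate, while Cys had 4 thresholded of 6 and Tyr and His 1 of 11 each.

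Identical genes had different peaks. The 336 autosomal genes hold 137 distinct sequences, and 250 have an identical copy elsewhere in the genome. Of 35 sequences with 3 or more autosomal copies, 28 had a thresholded peak at some but not all copies, 6 at none and 1 at all, the Arg genes F56F3.t1 (pooled 196.8), F35H8.t1 (175.2) and F14B4.t1 (109.9). How reads that fit several copies were placed is not given in the sources used here, so a value at an identical copy may hold reads of another.

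The Pro sequence printed as ZK970.t1 had 11 autosomal copies. T23F1.t2 had the shared peak of 199.8, F02H6.t1 had 71.2 (31.4 in replicate 1 and 36.3 in replicate 2), 4 further copies had candidates from 27.5 to 40.6, and 5, ZK970.t1 among them, had none. Of the 9 autosomal copies of the Lys sequence printed as F18C5.t1, 3 were thresholded: T23F1.t1 through the same shared peak, K04C2.t3 with 31.3 in replicate 1 and 83.9 in replicate 2 (122.0 pooled), and F18C5.t1 itself with 35.2 and 45.3 (81.9 pooled). ZK994.t1 had no candidate and the other 5 had between 23.9 and 55.5. Of 8 autosomal copies of the Thr sequence printed as C16C8.t2, W02G9.t2 and Y39A1A.t1 were thresholded, the second with 45.3 and 58.0 in the replicates. C16C8.t2 and ZK994.t3 had no candidate. In each of the 3 sets the span ran from no candidate to a thresholded peak with the same letters.

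The number of copies went with small differences. Of 86 single-copy autosomal genes 18 had a thresholded peak (20.9%, 13.7 to 30.7), of 87 genes with 2 to 9 identical copies 29 (33.3%, 24.3 to 43.8), and of 163 with 10 or more 49 (30.1%, 23.5 to 37.5). The B box was present in 319 of the 336 genes, searched as GTTCGANNC or GTTCAANNC on the gene's own strand, and 92 of those had a thresholded peak (28.8%). Of the 17 genes without either spelling, 4 did (23.5%, 9.56 to 47.3). Both pairs of intervals overlapped.

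Around the summits, 101 bp windows were searched on both strands for short motifs. The B box spelling GTTCGANNC was in 61 of the 257 windows (23.7%) and in 33 of the 94 thresholded ones (35.1%), where 1.17% of all autosomal candidates held it. GTTCAANNC was in 28 (10.9%), where 1.26% of all did. TGGNNNAGT, a spelling of the A box, was in 39 (15.2%), where 4.61% of all did. These boxes are parts of tRNA genes, so their nearness follows from the choice of peaks. TGATAC, a core letter string of sine oculis family sites, was in 1 of the 257 windows (0.389%) and in 0 of the 94 thresholded ones (Wilson interval up to 3.93%). In all autosomal candidates its share was 2.59% (2.40 to 2.80), above the interval of the 257 (0.0687 to 2.17). At X tRNA peaks it was 4 of 182 (2.20%, 0.858 to 5.51), an interval that includes 2.59%. In the thresholded autosomal peaks away from tRNA genes it was 3.41%, which the interval of the 94 includes. In windows of 25 bp each way, 0 of 257 held TGATAC (up to 1.47%), an interval that includes the 1.375% of all autosomal candidates. These differences were not tested. Of the 336 autosomal tRNA genes, 250 have an identical copy, so windows at different peaks can hold the same letters. The tRNA windows are thus not independent, and their intervals may be too narrow.

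GAGAGA was in 29 of the 257 tRNA windows (11.3%) and in 10 of the 94 thresholded ones (10.6%, 5.88 to 18.5). All autosomal candidates had 11.2%, and the thresholded peaks away from tRNA genes 560 of 1848 (30.3%, 28.3 to 32.4). The interval of the 94 included the share of all autosomal candidates and did not overlap that of the peaks away from tRNA genes. Windows that reach into a tRNA gene hold its letters, which identical copies share. The 94 windows are thus not independent, and their interval may be too narrow. How far the letters of the genes set this share was not tested. TCAGGTT, a longer spelling known from vertebrate sites of this family, was in 1 tRNA window (0.389%), where 1.21% of all autosomal candidates had it. CAGCTG, an E box, was in 4 (1.56%), where 2.82% of all had it. A run of TTTT, which includes the end signal of polymerase III but is common in the worm genome, was in 80.2% of tRNA windows, where 82.8% of all had it. The median GC content of the windows was 47.5% for all tRNA peaks and 51.5% for the thresholded ones, against 41.6% for all autosomal candidates and 49.5% for autosomal thresholded peaks. A string of letters shows no binding site, and its absence from a window says nothing of the factor.

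A peak with its summit within 100 bp was present in both replicates for 146 of the 257 tRNA peaks (56.8%, 50.7 to 62.7), where 25.9% of all autosomal candidates had one. For X tRNA peaks it was 106 of 182 (58.2%). Of the others, 35 had one in replicate 1 only, 46 in replicate 2 only and 30 in neither. Among the 94 thresholded tRNA peaks 87 had both (92.6%), and among the 163 not thresholded 59 (36.2%). The thresholded list was itself made from both replicates, so this last difference is partly fixed by how it was made.

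Over the 146 tRNA peaks in both replicates, log2 signal had a Pearson r of 0.79 and signal a Spearman rho of 0.77, as a description of the same 2 libraries. All 6228 autosomal candidates in both gave 0.80 and 0.69. The replicates' summits lay a median of 30.5 bp apart, and 26 bp for thresholded peaks. Among the 2508 strongest peaks of its own list, replicate 1 had 83 of the tRNA peaks and replicate 2 had 93, with 70 in both, all of them in the thresholded list. The 7 thresholded peaks without both included F47G6.t1 (Arg), with 86.0 in replicate 2, none in replicate 1 within 100 bp of its summit and 130.7 pooled. A further thresholded peak at the same gene had 79.0 pooled, 54.3 in replicate 1 and 40.5 in replicate 2.

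**Figure D5:**
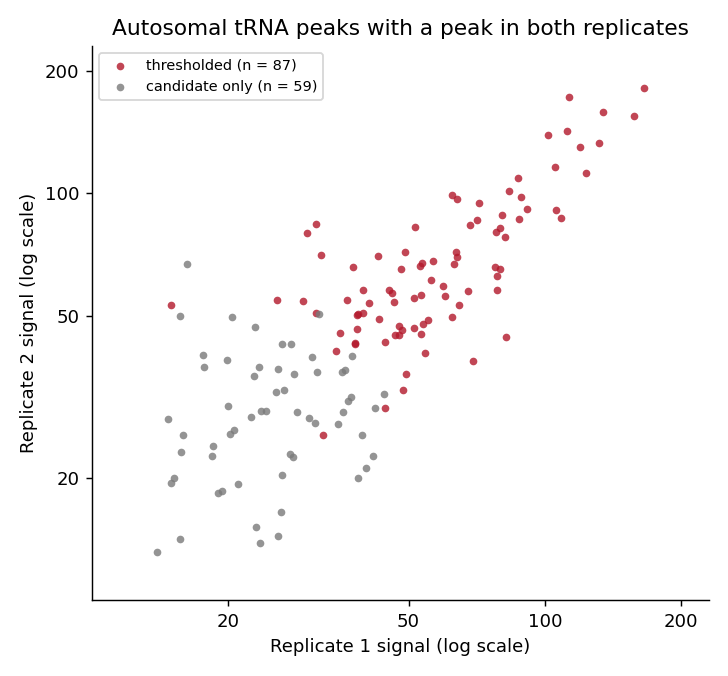
Signal in replicate 2 (y axis, log scale) against signal in replicate 1 (x axis, log scale) for the 146 autosomal tRNA peaks with a peak in both replicates, thresholded (red, n = 87) or candidate only (grey, n = 59). The strongest peak, at C37A2.t1, had 165.5 in replicate 1 and 181.8 in replicate 2.

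Protein-coding genes that make or use tRNA were looked up as well. Of all 19973 coding genes, 8.65% had a peak of the thresholded list no farther than 1000 bp from a 5′ end, and these are called bound here. Of 25 genes listed, 23 were matched and 2 of those were bound: rtcb-1, which encodes the ligase that joins tRNA pieces in splicing (107.6 pooled), and mtcu-2, which encodes an enzyme that modifies mitochondrial tRNA (120.3 pooled). A further 13 had a candidate below the threshold. The share of all coding genes with such a candidate is not given here, so this count has no background. Of the polymerase III subunits, rpc-1 had a candidate of 52.4, rpc-2 one of 31.0 and rpc-11 one of 26.2. The gene mafr-1, the worm's Maf1 repressor of polymerase III, had one of 75.5, just below the lowest thresholded signal of 76.5. The TFIIIB genes brf-1 and tbp-1 and the TFIIIC genes tftc-1 and tftc-3 had no candidate, while a further TFIIIC gene, tftc-5, had one of 19.5. With 2 of 23, the list was near the background.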

How the data were processed

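The authors deposited peak lists of 2 replicates, of the pooled alignments and after thresholding by the irreproducible discovery rate (IDR), per the file lists. The candidate lists came, per the same lists, from the alignments together with a further file that also served for control-normalised tracks. The aligner, the peak caller and the treatment of multi-mapping reads are details not given in the sources. Signal values are the deposited height of each peak, on a scale of each list. Depth was not analysed, so the error of a single signal value is unknown, and the control was not analysed here.

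Only the ce11 lists were used. Genes came from Ensembl release 115 and sequences from RefSeq WBcel235. All 2508 thresholded peaks were the strongest pooled candidates. Peaks, classes of genes, motifs and the list of 25 genes were chosen with earlier results of these data known. The text names the 10 strongest peaks, the strongest between coding genes, the strongest of each amino acid and those at a limit; other names were chosen after their values were seen. Shares carry 95% Wilson intervals and no test was run, as there was 1 group. Alternatives changed the distance limit, the replicate, the threshold, merging and the windows. Python 3.11.15 with pandas 2.3.3 and numpy 2.4.6 was used, and the distance and position steps were tested on simulated data.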

Additional observations from a re-analysis of the deposited data

How the results depend on the processing

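Of 66 alternatives, 31 stayed within the limit set for a change and 35 moved beyond it. With the summit inside the gene, 98 peaks remained; 51.0% were thresholded (54.2% in introns, 47.2% between genes), 29.2% of genes had a candidate and 14.9% a thresholded peak, and the median percentile was 92.1. Within 100 bp, 43.4% of peaks and 50% of intronic ones were thresholded and 57.7% of genes had a candidate. Within 500 bp, 71.1% of genes had a candidate and the median percentile was 81.7. The stronger 50% of the thresholded list held 17.1% of the peaks. Merging overlapping peaks gave 44.0% thresholded, and keeping the strongest summit within 300 bp, chosen after seeing the data, 44.8%. Adding pseudogenes gave 49.6% and 19.4% of genes with a candidate and a thresholded peak. With 1 replicate's list alone, 56.0% to 57.7% of genes had a candidate and the median summit lay at 29.5 to 35 bp; over thresholded peaks it lay at 20 bp. Peaks in both replicates were 37.0% within 50 bp, 69.3% within 200 bp and 79.0% by any overlap. In windows of 25 and 100 bp each way, GAGAGA was in 5.06% and 17.5%, GTTCAANNC in 5.45% and 16.0%, GTTCGANNC in 13.6% and 49.8%, TGGNNNAGT in 7.78% and 22.6%, TTTT in 50.6% and 98.4%, and TGATAC, at 25 bp, in 0%. Each of these settings changes by construction which summits, genes or letters are counted.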
